A study of Mus musculus with 20 samples.

Results

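The potassium channel family was described in mouse brain as the 78 protein-coding genes whose symbols begin with Kcn and whose mean over all 20 libraries was at least 1 CPM (counts scaled to the library total), out of 54532 genes in the count table. Another 16 protein-coding Kcn genes lay under that level, and 5 further rows with Kcn names were antisense transcripts. The lowest members were Kcnk5 at 1.02 CPM, Kcnh8 at 1.12 CPM and Kcne4 at 1.26 CPM, and the nearest genes outside were Kcnrg at 0.84 CPM, Kcnmb1 at 0.83 CPM and Kcnq1 at 0.82 CPM. All 78 members passed the filter on low counts and were tested. They held 27 voltage-gated alpha subunits, 9 silent modifier subunits of the Kv channels, 12 auxiliary subunits, 13 inward rectifiers and 10 tandem-pore-domain leak channels. A last class of 7 held the channels activated by calcium or sodium and, grouped with them, the Slo3 alpha subunit Kcnu1.

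Polyadenylated RNA was sequenced from a hemisphere of brain from mice of 4 genotypes, with 5 libraries each: wild type controls (WT), a Glb1 knockout (Glb1KO), a Neu3 knockout (Neu3KO) and the knockout of both genes (DKO). GM1 ganglioside is broken down in lysosomes by the enzyme encoded by Glb1, without which it is stored, as in GM1 gangliosidosis. Neu3 encodes a sialidase that trims gangliosides at the cell surface. The series design names the comparison of controls with DKO. The labels and design text used here state neither age, sex and strain nor how the alleles were made. Nor was it stated that the 5 libraries of a genotype came from separate animals, so p-values measure the spread between these libraries, which may be technical.

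Totals ran from 15162311 to 25145806 counts per library. Glb1 was at 16.7% of WT in Glb1KO and at 19.8% in DKO, with an exact two-sided permutation p = 0.00794 for each, the smallest that 5 against 5 libraries allow. Neu3 was at 74.4% of WT in Neu3KO (exact permutation p = 0.151) and at 77.4% in DKO (exact permutation p = 0.23). It ran from 2.32 to 5.53 CPM in WT, from 2.45 to 3.3 CPM in Neu3KO and from 2.07 to 4.31 CPM in DKO. Gene-level counts thus did not separate the Neu3 labels. The labels also carry a sample identifier that starts with a letter. It was E for the 5 WT libraries, 2 of Glb1KO, 1 of Neu3KO and 2 of DKO, while the 3 other Glb1KO libraries had L, and 4 of Neu3KO and 3 of DKO had W. What the letters stand for was not stated, and counts within the E libraries are given beside the pooled ones, with the members whose calls were lost there. Among markers of brain cells, the 15 pan-neuronal genes summed to 8720 CPM in WT on average, the 12 astrocyte genes to 5940 CPM and the 13 myelin genes to 6480 CPM. None of them was at 0 in all libraries, a low bar that does not test the tissue label.

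Potassium channels let potassium leave or enter cells and set the resting potential and the shape and timing of action potentials. In neurons, voltage-gated alpha subunits assemble as tetramers, silent subunits join the Kv2 alpha subunits without forming channels of their own, and auxiliary subunits change gating and transport. Inward rectifiers and leak channels hold the resting potential, also in astrocytes, where Kcnj10 clears extracellular potassium, and in microglia, where Kcnk13 carries the resting current.

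What joins the pore-forming members is the selectivity filter, a short loop whose backbone oxygens coordinate potassium. In the longest complete coding transcript of GENCODE M21, all 66 pore-forming members held codons for glycine, tyrosine or phenylalanine, and glycine in frame at that place, 50 with tyrosine and 16 with phenylalanine in the first match, and none of the 12 auxiliary members held them. Of the 10 tandem-pore-domain channels, whose subunits carry a pair of pore loops, 8 held the signature in both, while Kcnk1 and Kcnk6 held a leucine form in the other. The stretches of 45 coding bases below show how far this loop is shared between members whose levels differed most between genotypes, with Kcna1 as an abundant relative. Capitals mark the 15 bases of the filter codons, which end with the signature. Positions are in GRCm38, and the stretch of Kcnk6 and the first stretch of Kcnk13 span an intron.
Kcna1, chr6:126642213-126642257, minus strand: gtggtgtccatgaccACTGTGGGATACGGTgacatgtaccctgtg
Kcna6, chr6:126738632-126738676, minus strand: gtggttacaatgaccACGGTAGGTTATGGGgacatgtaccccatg
Kcnf1, chr12:17175046-17175090, minus strand: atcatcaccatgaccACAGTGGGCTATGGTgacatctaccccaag
Kcnj14, chr7:45819618-45819662, minus strand: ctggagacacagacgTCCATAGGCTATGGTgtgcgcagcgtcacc
Kcnk6, chr7:29225845-29232183, minus strand: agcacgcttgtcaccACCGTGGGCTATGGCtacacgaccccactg
Kcnk13 first loop, chr12:99966259-100061024, plus strand: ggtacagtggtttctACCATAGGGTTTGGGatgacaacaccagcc
Kcnk13 second loop, chr12:100061361-100061405, plus strand: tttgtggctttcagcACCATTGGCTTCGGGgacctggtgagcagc

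Identity over the 45 bases was higher among the Kv subunits shown than between them and other classes. Kcna1 and Kcna6 shared 35 bases, and Kcna1 and the silent subunit Kcnf1 shared 33. Kcna1 and Kcnj14 shared 19, and Kcna1 and the first loop of Kcnk13 shared 15.

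Levels were compared between genes per kilobase of gene model. Kcnab2, a Kv beta subunit that escorts Kv1 channels into axons, was the highest member with a mean of 74.7 CPM per kb over all libraries, followed by the astrocyte inward rectifier Kcnj10 at 59.4 and the inward rectifier Kcnj4 at 46.5. Kcnc1, a fast voltage-gated subunit, was at 41.1. Kcnk1 led the leak channels with 39.0 CPM per kb, and the sodium-activated Kcnt1 and the calcium-activated Kcnma1 stood at 21.9 and 17.2. In summed CPM per kb, the 27 voltage-gated alpha subunits made up 40% of the members, the auxiliary subunits and the inward rectifiers 18.8% each, the leak channels 9.73%, the silent subunits 7.09% and the calcium- or sodium-activated channels 5.48%. Within a class the levels spread over orders of magnitude, with Kcnc1 and Kcnh8, at 0.25 CPM per kb, both among the voltage-gated subunits.

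**Figure D1:**
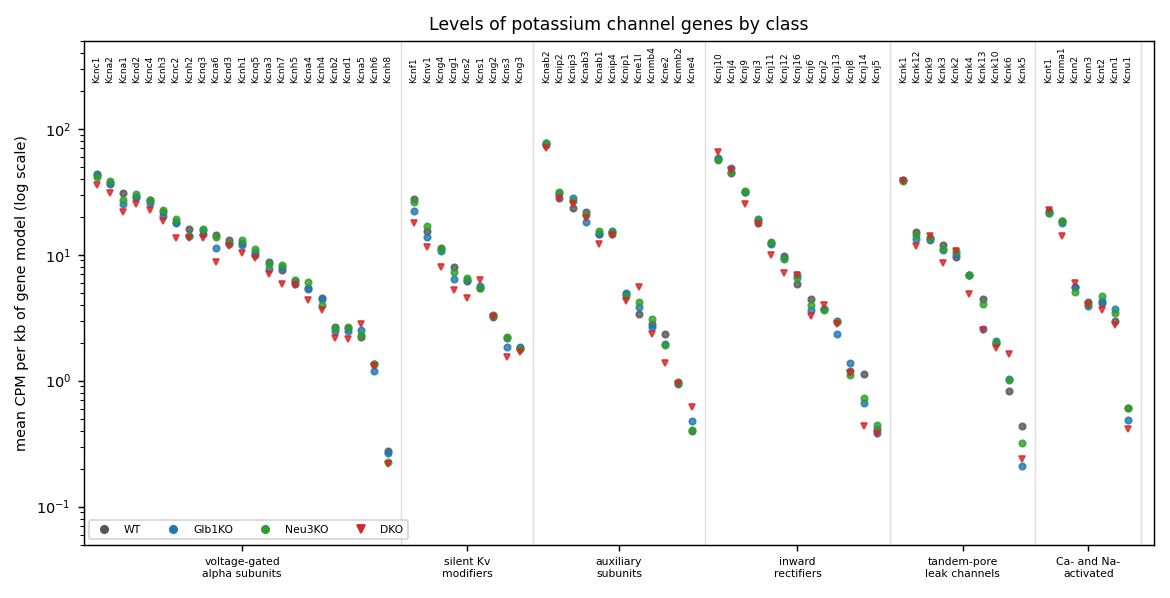
Mean level of 74 members in CPM per kb of gene model (log scale, n = 5 libraries per genotype), ordered by the WT level within each class. The genotypes lie close together for most members, and the DKO triangles lie lowest for many voltage-gated and silent subunits.

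The members' summed level was lower in every DKO library than in every other library. It ran from 6488 to 7132 CPM in WT, from 6329 to 6854 CPM in Glb1KO, from 6372 to 7143 CPM in Neu3KO and from 5712 to 5899 CPM in DKO. The sum of the 15 pan-neuronal markers ran from 8510 to 8960 CPM in WT and from 7180 to 8130 CPM in DKO. That of the 14 microglia markers ran from 256 to 315 CPM in WT and from 809 to 1040 CPM in DKO. That of the 12 astrocyte markers ran from 5680 to 6080 CPM in WT and from 10500 to 11900 CPM in DKO. Sums weigh abundant genes most, and the median log2 fold change of the astrocyte markers in DKO over WT was 0.469. In the relative counts of these bulk samples, fewer cells of a type, less RNA per cell and more RNA from other cells cannot be told apart. The part of cell makeup in the results on the members was not tested.

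**Figure D2:**
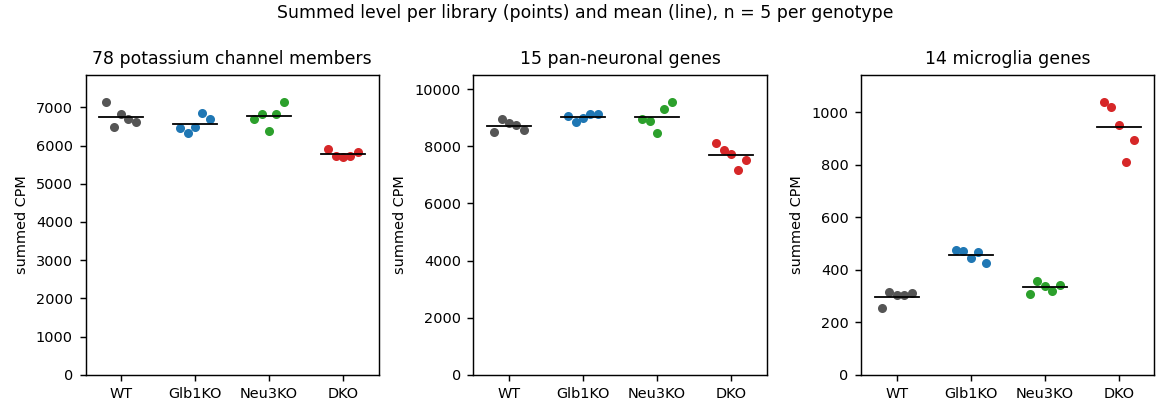
Summed CPM per library (points) with the genotype mean (line, n = 5 libraries each) for the 78 members, 15 pan-neuronal and 14 microglia markers, on axes from 0. The DKO libraries lie lowest in the first panel, from 5712 to 5899 CPM, and highest in the last.

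DKO was compared with WT, as the series design names. Of the 78 members, 36 fell and 2 rose, against a background over the 18336 genes tested of 15.1% lower and 14% higher (edgeR's quasi-likelihood test, Benjamini-Hochberg adjusted p under 0.05). The median member had a log2 fold change of -0.23, against -0.003 for all genes. Of the 15 pan-neuronal markers 9 fell and 0 rose, with a median of -0.176. The libraries of both genotypes did not overlap for 26 members that were lower in DKO, where 9.35% of all genes were separated this way. Changes were modest: apart from Kcnj14, the members that fell lay between 57.2% and 86.7% of their WT level.

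This split depended on the scaling. With libraries scaled on the summed counts of the pan-neuronal markers, which were themselves lower in DKO, 18 members were called lower and 14 higher, the median of all genes moved to 0.18 and that of the members to -0.05. A change of scaling shifts all genes nearly alike, so it cannot test the distance between the members' median and that of all genes. As this scaling moves all genes and the E libraries are fewer, member counts in those fits do not compare with the background above. The share of all genes called in fits with that scaling or with the identifier letters is not given here or below. Among the E libraries alone, 2 DKO against 5 WT, 24 members were called lower and 3 higher, with a median of -0.19. The authors' deposited table of this comparison called 34 members lower and 2 higher, all of them with the same direction here.

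Of the 27 voltage-gated alpha subunits 18 fell, with a median log2 fold change of -0.29, and of the 9 silent subunits 6 fell, with a median of -0.45. Of the 13 inward rectifiers 5 fell, of the 10 leak channels 4 fell and 1 rose, of the 12 auxiliary subunits 2 fell and 1 rose, and of the 7 calcium- or sodium-activated channels Kcnma1 alone fell. The share called lower was 66.7% for the voltage-gated and for the silent subunits, 38.5% for the inward rectifiers and 40% for the leak channels. It was 16.7% for the auxiliary subunits and 14.3% for the last class, near the 15.1% of all genes tested. With the pan-neuronal scaling the calls were 7 lower and 1 higher for the voltage-gated subunits, 3 and 1 for the silent subunits, 3 and 4 for the inward rectifiers, 3 and 3 for the leak channels, 1 and 4 for the auxiliary subunits and 1 and 1 for the last class, and the median turned positive for the inward rectifiers (0.10), the auxiliary subunits (0.13) and the calcium- or sodium-activated channels (0.09). Within the E libraries the calls were 13 lower for the voltage-gated subunits, 2 lower for the silent subunits, 4 lower and 1 higher for the inward rectifiers, 3 and 1 for the leak channels, 1 and 1 for the auxiliary subunits and 1 lower for the last class. The share of silent subunits called lower there was thus below that of the inward rectifiers and the leak channels. Their median log2 fold change within the E libraries was -0.30, against -0.06 for the inward rectifiers and -0.287 for the leak channels. Differences between classes were not tested.

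**Figure D3:**
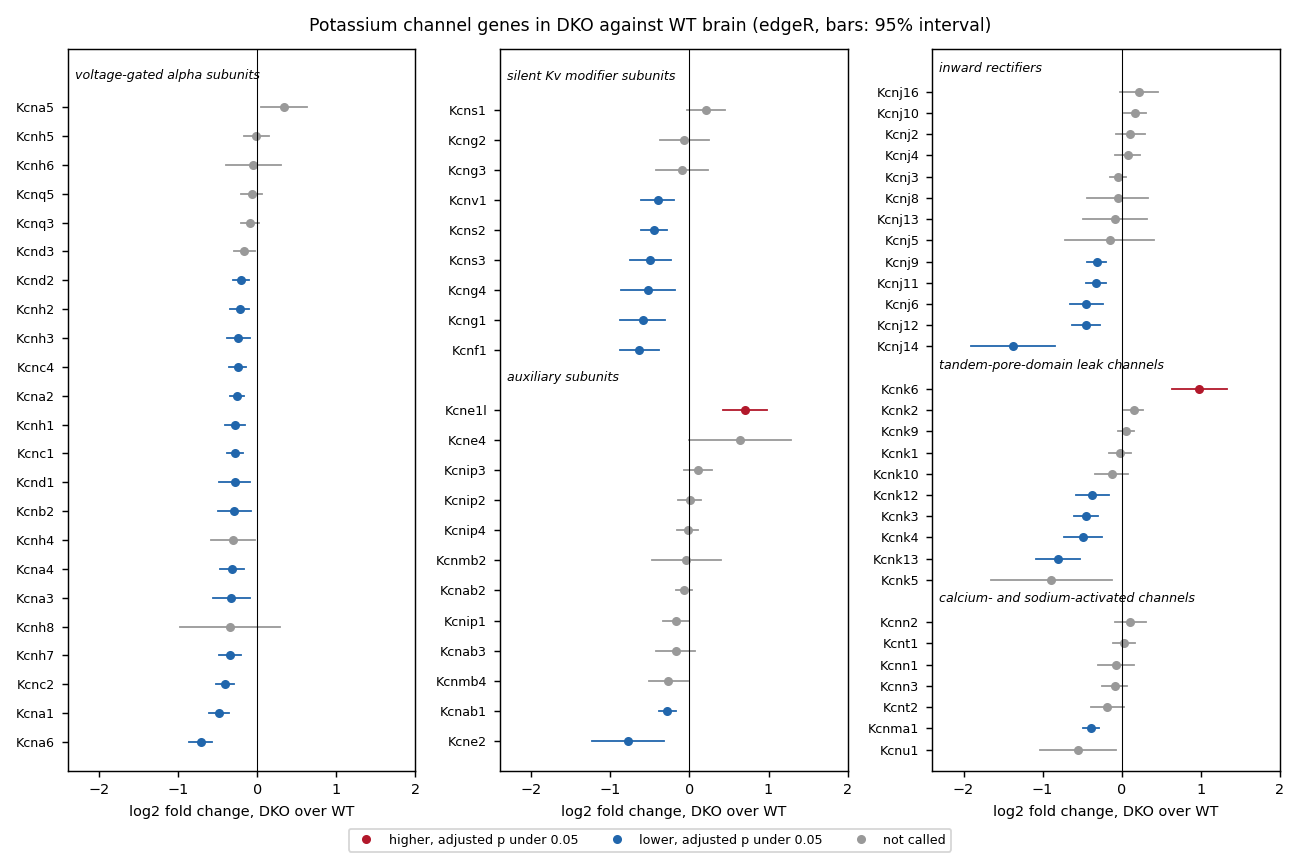
Log2 fold change of DKO over WT for 74 members, by class (edgeR, n = 5 libraries per genotype, bars are 95% intervals). Of the points, 33 are called lower and 2 higher, and most voltage-gated and silent subunits lie left of 0 with TMM scaling, while scaling on pan-neuronal genes leaves 18 of all 78 members lower and 14 higher.

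The Kv1 subunits form low-threshold channels of axons and nerve terminals, and 5 of 6 fell (2, with 1 higher, under the pan-neuronal scaling). Kcna6 (ENSMUSG00000038077, chromosome 6, from 126708329 to 126740674) was at 91.5, 84.7, 89.3, 82.0 and 80.4 CPM in the WT libraries and at 64.6, 57.4, 45.9, 47.7 and 45 CPM in the DKO libraries. The groups did not overlap, and the 2 E libraries of DKO, the first values, lay above its 3 W libraries. Kcna6 fell to 60.8% of WT (log2 fold change -0.72, SE 0.08, edgeR adjusted p = 2.87e-09), and within the E libraries its log2 fold change was -0.48 (edgeR adjusted p = 0.000132). It overlaps 1 gene on the other strand, whose reads could not be told apart without a stated strand setting.

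Kcna1, which sits beside the nodes of myelinated axons, fell less. It was at 152, 143, 155, 137 and 147 CPM in WT and at 101, 94.8, 99.0, 111 and 118 CPM in DKO, again with no overlap. Its level fell to 71.4% of WT (log2 fold change -0.49, SE 0.06, edgeR adjusted p = 2.09e-07). Kcna2, its partner in those channels, fell to 83.8%, Kcna3 to 79.7% and Kcna4 to 80.1%, while Kcna5 was at 126% of WT and did not pass the test (edgeR adjusted p = 0.0915). Under the pan-neuronal scaling Kcna2, Kcna3 and Kcna4 were not called (edgeR adjusted p = 0.25, 0.358 and 0.206) and Kcna5 was called higher (log2 fold change 0.52, edgeR adjusted p = 0.00792). Within the E libraries Kcna3 (-0.11, edgeR adjusted p = 0.682) and Kcna4 (-0.27, edgeR adjusted p = 0.0936) were not called, and Kcna3 was not called with the letter as a term (edgeR adjusted p = 0.413).

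Kcnc2, which speeds repolarization in fast-spiking interneurons, was at 122, 132, 131, 133 and 128 CPM in WT and at 110, 101, 95.6, 89.4 and 91.6 CPM in DKO. All DKO libraries lay below all WT libraries. Kcnc2 fell to 75.5% of WT (log2 fold change -0.41, SE 0.06, edgeR adjusted p = 9.93e-07). Kcnc1 fell to 82.1% and Kcnc4 to 84.3%, both without overlap, but under the pan-neuronal scaling their log2 fold changes were -0.10 (edgeR adjusted p = 0.174) and -0.07 (edgeR adjusted p = 0.423), against -0.29 and -0.25.

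Kcnb2, a delayed rectifier, fell to 81.8% of WT, and was not called under the pan-neuronal scaling (edgeR adjusted p = 0.53) or with the letter as a term (edgeR adjusted p = 0.0674). Of the A-type Kv4 subunits, which delay firing from dendrites, Kcnd2 and Kcnd1 fell to 86.7% and 82.0%, and Kcnd3 was at 89.3% without passing the test (edgeR adjusted p = 0.0634). Kcnq3 and Kcnq5, subunits of the M current that damps repetitive firing, were at 93.9% and 95.2%, neither of them called. Of the 8 members of the EAG, ERG and ELK families 4 fell, Kcnh7 to 78.6%, Kcnh1 to 82.1%, Kcnh3 to 84.7% and Kcnh2 to 85.9%. The calls of Kcnd2 (edgeR adjusted p = 0.778), Kcnd1 (0.427), Kcnh1 (0.246), Kcnh2 (0.73) and Kcnh3 (log2 fold change -0.06) were lost under the pan-neuronal scaling, which left 0 of 3 Kv4 subunits and Kcnh7 alone of the 8 called lower, with none called higher. Among the E libraries Kcnd2 (edgeR adjusted p = 0.109), Kcnd1 (0.257), Kcnh7 (0.276) and Kcnh1 (0.113) were not called, while Kcnd3 was called lower (log2 fold change -0.26, edgeR adjusted p = 0.0124). With the letter as a term Kcnd1 was not called (edgeR adjusted p = 0.149) and Kcnd3 was called lower (edgeR adjusted p = 0.0203).

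Silent subunits join Kv2 channels and shift their gating. Kcnf1 (ENSMUSG00000051726, chromosome 12, from 17172100 to 17176888) was at 128, 135, 134, 140 and 125 CPM in WT and at 93.8, 93.0, 63.3, 80.4 and 95.6 CPM in DKO. These ranges did not overlap, and Kcnf1 fell to 64.3% of WT (log2 fold change -0.64, SE 0.13, edgeR adjusted p = 0.000813). Kcng1 was at 33.1 to 39.3 CPM in WT and 17.1 to 28.5 CPM in DKO and fell to 66.4%. Kcns3 fell to 70.9%, Kcns2 to 73.0% and Kcnv1 to 75.7%, while Kcns1 was at 116% of WT, not called. None of Kcns3, Kcns2 and Kcnv1 was called within the E libraries (edgeR adjusted p = 0.292, 0.053 and 0.218). The calls of Kcns3 and Kcnv1 were also lost with the letter as a term (edgeR adjusted p = 0.0532 and 0.0566) and under the pan-neuronal scaling (0.056 and 0.0518), where Kcns1 was called higher (log2 fold change 0.40, edgeR adjusted p = 0.0196).

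Kcng4 was at 41.8, 40.8, 46.9, 41.6 and 46.0 CPM in WT and at 36.1, 17.3, 34.8, 40.1 and 22.8 CPM in DKO. The second and the fifth DKO library lay far below the others, and the highest DKO library lay just under the lowest WT library. Kcng4 fell to 69.6% (log2 fold change -0.52, SE 0.18, edgeR adjusted p = 0.0335), a call that was lost when 1 library was left out: the edgeR adjusted p was 0.0552 without WT 1, 0.0741 without WT 3, 0.0521 without WT 4, 0.0694 without WT 5 and 0.0882 without DKO 5. It was also lost with the library total alone as scaling (0.0548), with the pan-neuronal scaling (0.153), without the filter on low counts (0.0742), in a fit of both genotypes alone (0.101) and within the E libraries (0.0983).

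The lowest fold change belonged to an inward rectifier. Kcnj14 (ENSMUSG00000058743, chromosome 7, from 45816460 to 45824782), known from the cranial motor nuclei of brainstem, was at 2.58, 3.97, 2.56, 2.92 and 3.23 CPM in WT, at 1.87, 2.76, 1.32, 1.54 and 1.53 CPM in Glb1KO, at 2.24, 2.26, 1.06, 1.09 and 3.18 CPM in Neu3KO and at 1.31, 0.95, 1.48, 0.92 and 1.22 CPM in DKO. All DKO libraries lay below all WT libraries, while the single knockouts spanned the gap. Kcnj14 fell to 38.7% of WT (log2 fold change -1.37, SE 0.27, edgeR adjusted p = 0.000185).

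The 12 markers of hindbrain and spinal neurons were also lower, with a summed level of 75.3 to 115 CPM in WT, 26.1 to 41.9 CPM in Glb1KO, 25.2 to 94.1 CPM in Neu3KO and 34.9 to 48.2 CPM in DKO. Of the 10 tested, 5 were called lower in DKO (Slc6a5, Glra1, Hoxb5, Hoxc4 and Chat) and 0 higher. Hoxd4, below the filter on low counts, was at 0 in every Glb1KO and DKO library. The part of the hindbrain share of the tissue in the level of Kcnj14 was not tested.

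Other inward rectifiers that fell were Kcnj12 (73.3% of WT), Kcnj6 (73.4%) and Kcnj9 (80.4%), subunits that G proteins open in the latter pair, and Kcnj11 (80.1%), the pore of the channel closed by ATP. With the pan-neuronal scaling Kcnj9 (log2 fold change -0.13, edgeR adjusted p = 0.125) and Kcnj11 (-0.14, edgeR adjusted p = 0.111) were not called, and within the E libraries Kcnj6 was not (-0.43, edgeR adjusted p = 0.08), with a fold close to the pooled -0.45. Kcnj16, Kcnj2 and Kcnj4, not called with TMM scaling, were called higher under the pan-neuronal scaling (log2 fold changes 0.40, 0.29 and 0.26). Kcnj10, with 313 ± 17.1 CPM in WT and 351 ± 40.5 CPM in DKO (SD, n = 5 each), was not called (112%, edgeR adjusted p = 0.0726), and the astrocyte markers beside it were called higher for 10 of 12 and lower for 0. It was called higher under the pan-neuronal scaling (log2 fold change 0.34, edgeR adjusted p = 2.04e-05), within the E libraries (0.33, edgeR adjusted p = 0.00112) and with the identifier letter as a term (0.26, edgeR adjusted p = 0.0157).

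Among the leak channels the members moved both ways. Kcnk6 (ENSMUSG00000046410, chromosome 7, from 29221926 to 29232515), a lysosomal and plasma membrane channel of macrophages, was at 2.79, 3.05, 3.10, 2.98 and 5.15 CPM in WT and at 6.27, 7.81, 5.92, 6.50 and 7.27 CPM in DKO. All DKO libraries lay above all WT libraries, of which the fifth stood apart. Kcnk6 rose to 198% of WT (log2 fold change 0.98, SE 0.18, edgeR adjusted p = 5.89e-05), while 11 of the 14 microglia markers were called higher and 0 lower, with a median log2 fold change of 1.71. The part of microglia number in the level of Kcnk6 was not tested.

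Kcnk13 (ENSMUSG00000045404, chromosome 12, from 99964499 to 100062682), the leak channel of resting microglia, was at 12.6, 14, 14.5, 13.2 and 14.8 CPM in WT and at 10.4, 7.87, 5.86, 6.27 and 9.18 CPM in DKO. It fell to 57.2% of WT (log2 fold change -0.81, SE 0.14, edgeR adjusted p = 3.5e-05), although the microglia markers were higher. The 13 myelin markers all fell, with a median of -0.79, and their part in the level of Kcnk13 was not tested. Kcnk4 fell to 71.4%, Kcnk3 to 72.9% and Kcnk12 to 77.3%. Kcnk12 was not called under the pan-neuronal scaling (edgeR adjusted p = 0.166), with the letter as a term (0.082) or within the E libraries (0.139), and Kcnk4 was not called with the letter as a term (0.0961) or within the E libraries (log2 fold change -0.26, edgeR adjusted p = 0.382). Kcnk1, Kcnk2, Kcnk9 and Kcnk10 lay between 91.5% and 111% of WT and were not called, although Kcnk2 and Kcnk9 were called higher under the pan-neuronal scaling (log2 fold changes 0.33 and 0.24). Kcnk5, the lowest member of the class, was at 54.0% with an interval of the log2 fold change from -1.66 to -0.12 (edgeR adjusted p = 0.0881). It was called lower with the letter as a term (log2 fold change -1.61, edgeR adjusted p = 0.0199) and within the E libraries (-1.85, edgeR adjusted p = 0.0496).

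Of the auxiliary subunits, Kcne1l (ENSMUSG00000090122, chromosome X, from 142304752 to 142306294), a single-span partner of Kv channels, was at 4.16, 5.34, 4.77, 5.90 and 6.06 CPM in WT and at 10.6, 9.23, 6.57, 8.16 and 8.12 CPM in DKO. The ranges did not overlap, with the highest values in the 2 E libraries of DKO. Kcne1l rose to 163% of WT (log2 fold change 0.70, SE 0.14, edgeR adjusted p = 0.000221). Kcnab1, which inactivates Kv1 channels, fell to 82.4%, and Kcnab2 was at 95.3%, not called. The call of Kcnab1 was lost under the pan-neuronal scaling (log2 fold change -0.10, edgeR adjusted p = 0.186). None of the 4 Kv4 interacting proteins was called, with a median log2 fold change of -0.01, whereas under the pan-neuronal scaling Kcnip2, Kcnip3 and the KCNE subunit Kcne4 were called higher.

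Kcne2, a subunit of the choroid plexus epithelium, was at 2.32, 6.10, 5.84, 3.40 and 3.12 CPM in WT and at 3.08, 2.19, 1.42, 2.59 and 2.81 CPM in DKO. The ranges overlapped, with WT 2 and WT 3 far above the rest. Kcne2 fell to 58.3% of WT (log2 fold change -0.78, SE 0.23, edgeR adjusted p = 0.0106), but the edgeR adjusted p was 0.0617 without WT 2, 0.0557 without WT 3, 0.0781 with the identifier letter as a term and 0.259 within the E libraries. The 12 choroid plexus markers summed to 500 to 902 CPM in WT and 566 to 801 CPM in DKO, with Ttr at 477 and 554 CPM on average, 2 markers called lower (Prlr and Car12) and 0 higher. Their part in the level of Kcne2 was not tested.

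Kcnma1, the large-conductance calcium-activated channel, was at 366, 299, 305, 308 and 285 CPM in WT and at 246, 240, 243, 236 and 229 CPM in DKO. It fell to 76.4% of WT with no overlap (log2 fold change -0.39, SE 0.05, edgeR adjusted p = 4.76e-07). The small-conductance channels Kcnn1, Kcnn2 and Kcnn3 lay between 93.9% and 108% of WT, and the sodium-activated Kcnt1 and Kcnt2 at 102% and 88.2%, none of them called, nor was Kcnu1. Kcnn2 was called higher under the pan-neuronal scaling (log2 fold change 0.29, edgeR adjusted p = 0.0238). The interval of the log2 fold change ran from -0.30 to 0.15 for Kcnn1, from -0.08 to 0.30 for Kcnn2 and from -0.11 to 0.17 for Kcnt1.

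**Figure D4:**
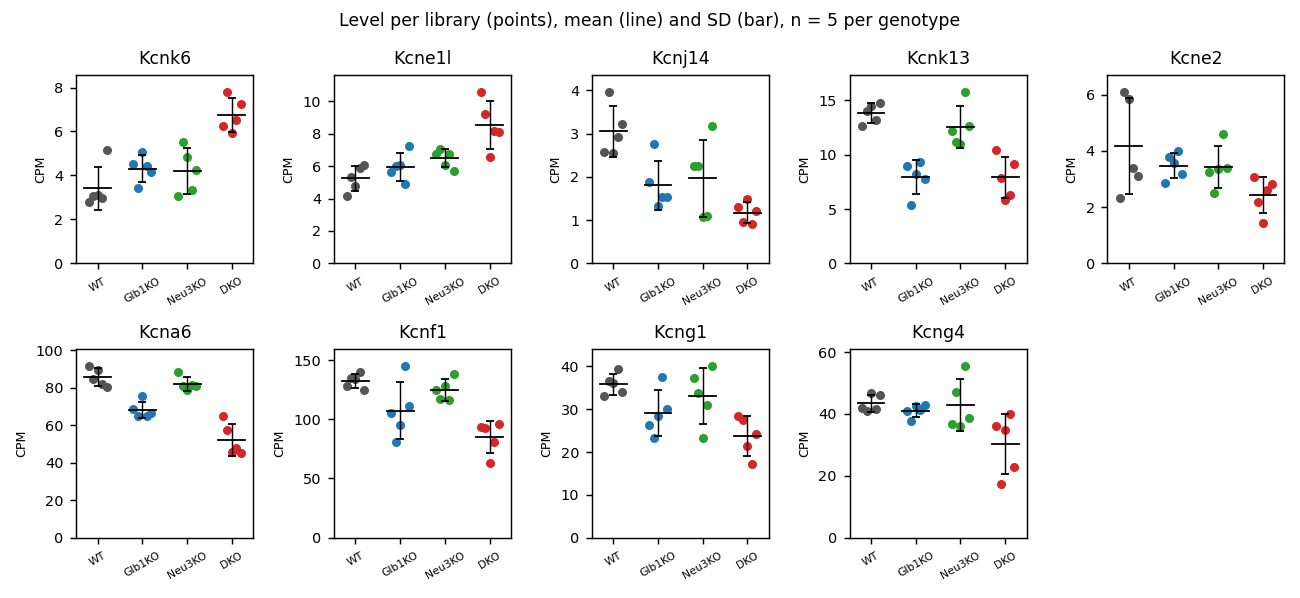
CPM per library (points), mean (line) and SD (bar, n = 5 per genotype) of 9 members with the highest or lowest called fold changes of DKO over WT, on axes from 0. Kcnk6 and Kcne1l lie highest in DKO, Kcnk13 is low in Glb1KO and DKO alike, and the Kcne2 ranges overlap.

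Proteins that bind, place or partner potassium channels were described from a list of 21 genes, of which 20 were tested. In DKO 12 of them were called lower than in WT and 0 higher, with a median log2 fold change of -0.20 (pan-neuronal markers -0.18). Of all genes tested, 15.1% were called lower and 14% higher in this comparison. Cntn2, an adhesion molecule that clusters Kv1 channels beside the node, was lower with a log2 fold change of -0.59 (SE 0.06, edgeR adjusted p = 2.92e-09), Ank3, which anchors Kv7 channels at the axon initial segment, with -0.53 (SE 0.06, edgeR adjusted p = 3.86e-09), and Adam23, a receptor of the Lgi1 ligand, with -0.35 (SE 0.05, edgeR adjusted p = 8.64e-07). Amigo1, the auxiliary protein of Kv2 channels, had -0.35, Dlg2 -0.31, and Abcc8, the sulfonylurea receptor that pairs with Kcnj11, -0.49, each called. The Kv4 partners Dpp6 (-0.11) and Dpp10 (-0.13) and the Kv1 partner Cntnap2 (-0.02) were not called. Calls of these partner genes under the pan-neuronal scaling or with the identifier letters are not given here.

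Among 17 other genes of potassium and cation transport, 11 were called lower in DKO than in WT and 4 higher, against 15.1% and 14% of all genes. Their calls under the pan-neuronal scaling or with the identifier letters are not given either. The neuronal chloride and potassium cotransporter Slc12a5 (-0.30) and the pacemaker channels Hcn2 (-0.41) and Hcn4 (-0.43) were lower in log2 fold change. The glial pump subunit Atp1b2 (0.36) was higher, as were Atp1b3 (0.24) and the cotransporter Slc12a7 (0.57).

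The comparison of Glb1KO with WT addresses the loss of Glb1 alone. Here 3 members fell and 0 rose, against a background of 2.21% lower and 1.75% higher, and the median member was at -0.04 against 0.002 for all genes. Kcnk13 fell to 57.5% of WT (log2 fold change -0.80, SE 0.14, edgeR adjusted p = 0.000268), with 8.99, 5.40, 8.24, 9.36 and 7.78 CPM in the Glb1KO libraries, all below the lowest WT library at 12.6 CPM. Kcna6, at 68.4, 64.6, 75.4, 65.0 and 66.7 CPM, fell to 79.6% (edgeR adjusted p = 0.00478). Kcna1, at 124, 105, 120, 128 and 133 CPM, fell to 83.1% (edgeR adjusted p = 0.0075). None of these 3 overlapped its WT range, but they were chosen by their p-values, so this adds no separate support. All 13 myelin markers were called lower in this comparison too, with a summed level of 3700 to 4220 CPM against 5930 to 6730 CPM in WT, and 8 of 14 microglia markers were called higher; their part in these 3 members was not tested.

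The 3 calls varied with the identifier letter. With the letter as a term, Kcna6 alone was called, with a log2 fold change of -0.69 for Kcnk13 (edgeR adjusted p = 0.0559), close to the pooled -0.80, and of -0.17 for Kcna1 (edgeR adjusted p = 0.496), against -0.27. Within the E libraries, 2 Glb1KO against 5 WT, 2 members were called, Kcnk13 and Kcna6, and Kcna1 had an edgeR adjusted p = 0.376. These 2 fits are not separate checks. L occurred in Glb1KO alone and all WT libraries had E, so both fold changes rest on the 2 E libraries of Glb1KO. Without WT 2 or without Glb1KO 4 the count was 5. Kcnj14, at 59.0% of WT, did not pass the test (edgeR adjusted p = 0.101).

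Loss of Neu3 alone gave no call among the members, where 0% of all 18336 genes were called by edgeR. DESeq2 called 0 members as well, and 9 members and 1105 of all genes had an unadjusted p under 0.05 by edgeR. The smallest p belonged to Kcnh2, a cardiac and neuronal ERG channel, at 88.2% of WT (edgeR adjusted p = 0.706), followed by Kcna1 at 89.2%, Kcnq3 at 110%, the stretch-sensitive leak channel Kcnk2 at 111% and Kcnj14 at 64.9%, each with an edgeR adjusted p = 0.767. The median member had a log2 fold change of 0.002, and the fold changes of all members lay between -0.62 and 0.31.

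DKO was then compared with Glb1KO, which asks what the loss of Neu3 adds where Glb1 is lost. Of the members 23 fell and 2 rose, against a background of 7.29% lower and 8.41% higher, with a median of -0.18 against -0.005. With the pan-neuronal scaling the split turned to 4 lower and 15 higher, with all genes at 0.23 and the members at 0.06. As all genes moved upward in that fit, these counts do not compare with the background above. Of the 23, 14 were among the 27 voltage-gated alpha subunits. The pan-neuronal markers had 13 of 15 called lower and 0 higher with TMM scaling, with a median of -0.244.

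Kcnh7, an ERG subunit, fell to 74.0% and Kcnc2 to 75.8%, with Glb1KO libraries at 122, 129, 128, 131 and 134 CPM and DKO libraries at 110, 101, 95.6, 89.4 and 91.6 CPM. Kcns2 fell to 71.9%, Kcnk4 to 71.3%, Kcnn1 to 75.8%, Kcnj12 to 75.9% and Kcna6 to 76.5%. Under the pan-neuronal scaling the calls of Kcnk4 (log2 fold change -0.26, edgeR adjusted p = 0.0899), Kcnn1 (-0.17, 0.226), Kcnj12 (-0.16, 0.165) and Kcna6 (-0.16, 0.0758) were lost. Kcnk6 rose to 156% (edgeR adjusted p = 0.00888) and Kcne1l to 143% (edgeR adjusted p = 0.00884). Kcnk13 was at 7.96 ± 1.56 CPM in Glb1KO and 7.91 ± 1.91 CPM in DKO (SD, n = 5 each), a log2 difference of -0.01 with an interval from -0.29 to 0.28.

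These calls were fewer within identifier letters. With the letter as a term 15 members were called, all lower, and within the E libraries, 2 DKO against 2 Glb1KO, 10 were called, 9 lower and 1 higher, with a median of -0.20. As L occurred in Glb1KO alone, the Glb1KO level rests on its 2 E libraries in both fits. Of the members named here, Kcnc2 kept the call within the E libraries (edgeR adjusted p = 0.0198). The log2 fold changes of some others were about as large as the pooled ones or larger there without passing the test: 0.72 for Kcnk6 (edgeR adjusted p = 0.18), 0.72 for Kcne1l (0.0864), -0.38 for Kcnn1 (0.308) and -0.34 for Kcnj12 (0.187), against 0.64, 0.51, -0.40 and -0.40. Those of Kcnh7 (-0.24, edgeR adjusted p = 0.214), Kcns2 (-0.32, 0.165) and Kcnk4 (-0.25, 0.617) were smaller than the pooled -0.44, -0.48 and -0.49. The log2 fold change of Kcna6 was -0.10 there (edgeR adjusted p = 0.691), with DKO at 64.6 and 57.4 CPM and Glb1KO at 65.0 and 66.7 CPM.

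DKO against Neu3KO asks what the loss of Glb1 adds where Neu3 is lost. Of the members 36 fell and 3 rose, against a background of 12.8% lower and 12.3% higher, with a median of -0.26 against -0.005. The 15 pan-neuronal markers themselves had 11 called lower and 0 higher with TMM scaling, with a median of -0.227. The pan-neuronal scaling gave 11 members lower and 16 higher, with all genes at 0.23 and the members at -0.03. These counts, too, do not compare with the background above. Within the E libraries, 2 DKO against 1 Neu3KO, which is assumed to vary like the other groups, 6 members were called, 5 lower and 1 higher, with a median of -0.23.

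Kcna6 fell to 63.5% of Neu3KO (log2 fold change -0.66, SE 0.08, edgeR adjusted p = 2.22e-08), from 88.4, 80.8, 78.8, 81.4 and 80.6 CPM. Kcnk13 fell to 63.2%, Kcnf1 to 68.2%, Kcnv1 to 68.8%, Kcns3 to 69.9% and Kcns2 to 70.2%, each called at an edgeR adjusted p of at most 0.00356. Of these members, Kcnk13, Kcnv1, Kcns3 and Kcns2 were not called within the E libraries (log2 fold changes -0.41, -0.31, -0.23 and -0.37, edgeR adjusted p = 0.374, 0.482, 0.8 and 0.175). The call of Kcns3 was lost under the pan-neuronal scaling (edgeR adjusted p = 0.0789).

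Of the 3 members that rose, Kcnk6 stood at 161% of Neu3KO (edgeR adjusted p = 0.00327), with a log2 fold change of 1.21 within the E libraries (edgeR adjusted p = 0.0515), against 0.69. Kcne1l was at 131% (edgeR adjusted p = 0.0343) and Kcnj10 at 115% (edgeR adjusted p = 0.0362). The call of Kcne1l was lost without Neu3KO 3 (edgeR adjusted p = 0.0649), Neu3KO 5 (0.0845), DKO 1 (0.118) or DKO 2 (0.0687), and that of Kcnj10 without Neu3KO 1 (0.0547), Neu3KO 2 (0.0822), Neu3KO 3 (0.0973), Neu3KO 5 (0.0635), DKO 1 (0.13) or DKO 2 (0.0664). Kcnj14 was at 59.6% (edgeR adjusted p = 0.0461), a call lost without Neu3KO 1 (0.104), Neu3KO 2 (0.0968), Neu3KO 5 (0.199), DKO 1 (0.0545), DKO 2 (0.1), DKO 4 (0.109) or DKO 5 (0.0686) with the replicate block (0.0643), with the library total (0.0671) or the pan-neuronal scaling (0.133) and in a fit of both genotypes alone (0.084). Kcne1l was also lost without the filter on low counts (0.062) and Kcnj10 in a fit of both genotypes alone (0.0808). Within the E libraries the edgeR adjusted p was 0.371 for Kcne1l, 0.0458 for Kcnj10 and 0.272 for Kcnj14, and with the letter as a term it was 0.0732, 0.0767 and 0.0473.

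Whether the loss of one gene acted differently with the other lost was tested as the interaction, the difference of DKO from Glb1KO less that of Neu3KO from WT. Of the members 15 were called with a negative interaction and 0 with a positive one, against a background of 2.88% and 3.96%, and the median member was at -0.18 against 0.001. Of the 15, 9 were voltage-gated alpha subunits, among them Kcnc2, Kcnh7, Kcna2, Kcna4, Kcnq3, Kcnq5 and Kcnd2. The others were the silent subunit Kcns2, the Kv beta subunit Kcnab1, the inward rectifiers Kcnj9 and Kcnj11 and the calcium-activated Kcnma1 and Kcnn1. The pan-neuronal markers had 9 of 15 called with a negative interaction and 0 with a positive one, with a median of -0.255. Of 10 thalamic neuron markers 8 were called negative and 0 positive, with a median of -0.536. Of 12 cerebellar neuron markers 4 were called negative and 0 positive, and 0 of the striatal, inhibitory or hindbrain markers were called. The part of these neurons in the interaction of the members was not tested.

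Kcnc2 had the smallest p, with an interaction of -0.48 on the log2 scale (SE 0.08, edgeR adjusted p = 9.63e-05). Its level was 129 ± 4.49 CPM in WT, 129 ± 4.15 CPM in Glb1KO, 137 ± 10.4 CPM in Neu3KO and 97.5 ± 8.20 CPM in DKO (SD, n = 5 each), so that DKO alone stood apart. Kcnh7 had an interaction of -0.57 (SE 0.10, edgeR adjusted p = 0.000196), at 114 ± 11.6, 121 ± 1.62, 125 ± 7.63 and 89.8 ± 11.7 CPM in the same order. Kcnma1 had -0.35 (SE 0.07, edgeR adjusted p = 0.00216), at 313 ± 31.0, 304 ± 10.3, 313 ± 12.9 and 239 ± 6.37 CPM. Kcns2 had -0.53 (SE 0.12, edgeR adjusted p = 0.00331) and Kcnab1 -0.34 (SE 0.08, edgeR adjusted p = 0.00335).

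Kcnk13 and Kcnj14 were not among them. Kcnk13 had an interaction of 0.14 with an interval from -0.26 to 0.53, and Kcnj14 of 0.02 with an interval from -0.79 to 0.825. For 3 of the 15, DKO itself was not called against WT: Kcnn1 was at 125% of WT in Glb1KO, 117% in Neu3KO and 94.9% in DKO, Kcnq3 at 107%, 110% and 93.9%, and Kcnq5 at 95.2% in DKO. All comparisons with WT share its libraries.

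**Figure D5:**
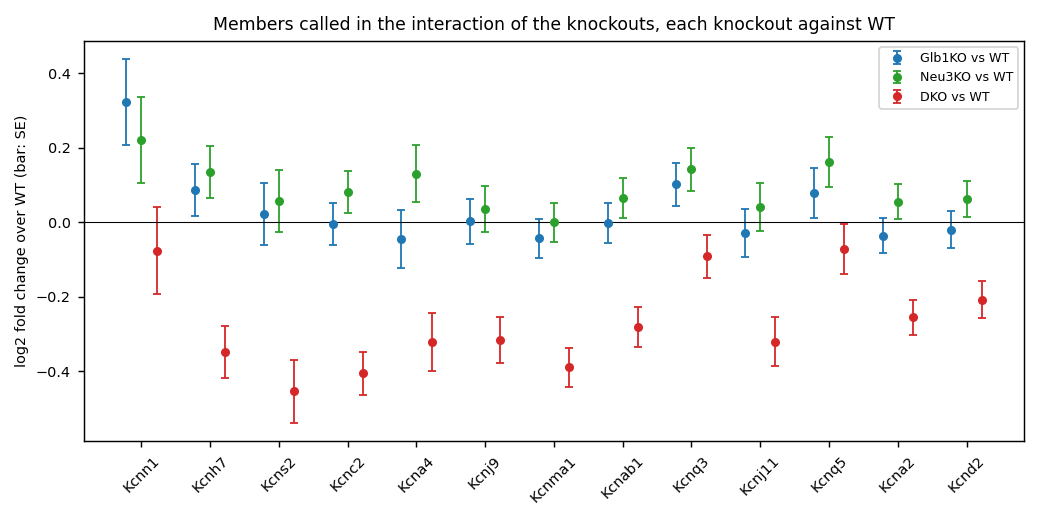
Log2 fold change over WT (points, bars are SE, n = 5 libraries per genotype) for 13 of the 15 members called in the interaction, with TMM scaling. The DKO point lies lowest for every one of the 13, while the single knockouts lie between -0.05 and 0.32. Scaling on pan-neuronal genes left 2 of the negative calls.

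Under the pan-neuronal scaling 2 members, Kcnc2 (-0.20) and Kcnh7 (-0.29), kept a negative call, while 10 others were called positive, among them Kcnj10, Kcnh2, Kcnk9 and Kcnn2. The median of all genes stood at 0.28 in that fit and that of the members at 0.10, so these counts do not compare with the TMM background. Within the E libraries, with 1 Neu3KO, 2 Glb1KO, 2 DKO and 5 WT libraries, 0 members were called and the median was -0.21. The interaction of Kcnc2 was -0.42 there (edgeR adjusted p = 0.103) and that of Kcnh7 -0.36 (edgeR adjusted p = 0.406). With the letter as a term, where Glb1KO again rests on its 2 E libraries, 14 members were called, all negative.

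In the RefSeq table of mouse promoters (GRCm38.p6, from 250 bases before to 50 after a start), 56 of the 78 members were found, and their letters were compared with all 32851 promoters of the table. The median GC content was 62.5% against 52.7%. The GC box GGGCGG occurred on either strand in 55.4% of the members and 35.7% of all promoters, the TATA box TATAAA in 3.57% and 13.6%, the E-box CACGTG in 8.93% and 7.15%, and the cyclic AMP element TGACGTCA in 0% and 1.79%. Among the members that fell in DKO, 14 of 23 (60.9%) held the GC box, and among those not called 16 of 32 (50%), a gap of few genes that was not tested. The nearest promoter of a member could lie far from the start of its gene model, as for Kcnj12 (43240 bases) and Kcnh2 (22013 bases). Below are the windows of a member that fell and of a member that rose, with GC boxes in capitals: that of Kcna6 holds none of the 4 motifs and that of Kcne1l holds the GC box.
Kcna6, chr6:126740625-126740924, minus strand: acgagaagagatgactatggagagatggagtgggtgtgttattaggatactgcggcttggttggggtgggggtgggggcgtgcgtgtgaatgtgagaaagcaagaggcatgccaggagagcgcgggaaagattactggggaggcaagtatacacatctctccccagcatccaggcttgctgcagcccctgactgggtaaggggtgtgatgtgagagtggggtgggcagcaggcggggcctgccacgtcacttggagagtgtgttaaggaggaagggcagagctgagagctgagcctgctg
Kcne1l, chrX:142306149-142306448, minus strand: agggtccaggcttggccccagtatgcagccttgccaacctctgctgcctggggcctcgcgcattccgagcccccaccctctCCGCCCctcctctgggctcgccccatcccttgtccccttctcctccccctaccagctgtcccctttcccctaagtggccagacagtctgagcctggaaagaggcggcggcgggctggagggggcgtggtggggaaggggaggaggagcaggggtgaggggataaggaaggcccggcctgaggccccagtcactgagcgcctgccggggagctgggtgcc

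Some members lie on the chromosome of a targeted gene. Kcnk6, Kcnj14, Kcnj11 and Kcnc1 lie between 53.4 and 70.6 Mb from Neu3 on chromosome 7, and Kcnj5 lies 82.1 Mb from Glb1 on chromosome 9. Sequence carried along with the targeted alleles was not tested. Of the 78 members, 37 overlap another gene of the table and 34 overlap one on the other strand, Kcnk13 among the latter.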

How the data were processed

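Gene counts for 20 brain libraries were deposited by the authors. Per the submitters' processing notes, the tools were fastp, HISAT2 (version 2.0.5) for mm10, featureCounts (version 1.5.0-p3) and, for testing, DESeq2 (version 1.20.0). No source used here gives the strand setting of counting. The authors also deposited a table of DKO against WT with log2 fold changes and p-values. From the counts, edgeR 4.0.16 (R 4.3.3, limma 3.58.1) was run as a robust quasi-likelihood fit over all libraries with a mean per genotype, TMM scaling and its default filter on low counts, which left 18336 genes; p-values were Benjamini-Hochberg adjusted over all of them, with a threshold of 0.05. CPM are TMM-scaled. The script was tested on simulated data. Alternatives were DESeq2 1.42.0, other scalings, no filter, the compared genotypes alone, the replicate number as a block, the identifier letter, and leaving out each library. Named members are the up to 8 highest and 8 lowest called fold changes, or the 5 smallest p-values for Neu3KO against WT and the interaction; other members are named by subfamily. Of 14 gene lists, those for oligodendrocyte precursors (4 of 8 lower in DKO than in WT, 0 higher), endothelial and mural cells (1 lower and 2 higher of 11), inhibitory neurons (3 and 1 of 10), striatal neurons (0 and 2 of 10) and thalamic neurons (7 and 0 of 10) are given for that comparison here only, as are cerebellar neurons (5 and 0 of 12). Some members and other genes are not reported here by name or drawn; counts include them. The members and lists were chosen with earlier results of these data known.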

Additional observations from a re-analysis of the deposited data

Results flagged for a closer look

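The interaction of the knockouts, tested with edgeR, was below 0 for 15 members, among them, on the log2 scale, Kcnc2 (-0.48), Kcnh7 (-0.57), Kcnma1 (-0.35), Kcns2 (-0.53), Kcnab1 (-0.34), Kcna2 (-0.27), Kcnj9 (-0.36), Kcnq3 (-0.34), Kcnn1 (-0.62), Kcna4 (-0.41), Kcnj11 (-0.33), Kcnd2 (-0.25) and Kcnq5 (-0.31).

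A single library stood apart from the other 4 of its genotype by Dixon's gap test in 11 of 176 groups tested over 44 members, where chance gives about 1 in 20. In WT these were Kcnma1 (366 CPM) in library 1, Kcnb2 (33.9 CPM) and Kcnu1 (1.31 CPM) in library 2 and Kcnk6 (5.15 CPM) in library 5. In Glb1KO they were Kcnu1 (2.58 CPM) in library 3 and Kcnmb4 (7.47 CPM) in library 5. In Neu3KO they were Kcna6 (88.4 CPM) in library 1, Kcna1 (118 CPM) in library 3 and Kcnh7 (139 CPM) in library 5. In DKO they were Kcnh3 (124 CPM) and Kcnn2 (55.1 CPM), both in library 5.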

How the results depend on the processing

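The number of members called in DKO against WT (38) ran from 34 to 40 when 1 library was left out and was 39 with DESeq2 and with the replicate block. For Glb1KO against WT (3) it was 5 with the pan-neuronal scaling, 6 without the filter on low counts, 6 in a fit of both genotypes alone, 1 with the identifier letter as a term and 3 to 5 with 1 library left out. For DKO against Glb1KO (25) it was 15 with the letter as a term, 10 within the E libraries and 22 to 26 with 1 library left out. For DKO against Neu3KO (39) it was 6 within the E libraries and 31 to 39 with 1 library left out. For the interaction (15) it was 0 within the E libraries, which hold 1 Neu3KO library, 13 to 18 with 1 library left out and 17 with the replicate block. For Neu3KO against WT it was 0 in each of these settings. With DESeq2 the counts were 4, 26, 39 and 17 in the same order. Where counts differed, the cause was not tested, except that within the E libraries fewer samples entered. No named value reversed; 848 values kept their side of the threshold and 77 no longer passed it. Over 30 pairs of same-numbered libraries, deviations from the genotype mean correlated between -0.13 and 0.07, so the numbers do not pair the samples. Members near 1 CPM, such as Kcnk5, rest on few counts.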
